A study of Mus musculus with 5 samples.

Results

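Oxidative phosphorylation is the chain of 4 respiratory complexes and the ATP synthase that sits in the inner mitochondrial membrane. Electrons enter at complex I (NADH dehydrogenase) or complex II (succinate dehydrogenase), pass through complex III (cytochrome bc1) and complex IV (cytochrome c oxidase), and the proton gradient they build drives complex V (the ATP synthase). All of these complexes except complex II are built from 2 genomes: a small set of hydrophobic core subunits is transcribed inside the mitochondrion, and the remaining subunits come from nuclear genes.

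The genes were taken by name from the gene count table, as protein-coding features whose mouse symbol begins with mt-, Nduf, Sdha, Sdhb, Sdhc, Sdhd, Uqcr, Cox4, Cox5, Cox6, Cox7, Cox8 or Atp5. The rule found 108 features among 17087 protein-coding features and 30046 features in all. Of these, 13 were mitochondrially encoded and 95 nuclear encoded. The nuclear set held 36 subunits of complex I, 4 of complex II, 8 of complex III, 17 of complex IV (Ndufa4 and Ndufa4l2 included) and 17 features of complex V, as well as 12 assembly factors and Atp5s, a coupling factor B-like gene that is not a subunit. The rule itself uses names and no measured value.

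The study asked how marrow stromal cells with a fetal perichondrial origin differ from those with a fetal chondrocyte origin. Bulk RNA-seq was made from sorted cells of femurs of mice at postnatal day 21 that carried the Cxcl12 GFP allele (GFP/+) and the R26R tdTomato reporter (tdTomato/+) and had received tamoxifen at embryonic day 12.5. The Dlx5CE-E12.5 group (3 libraries, replicates 1, 2 and 3) also carried Dlx5 CreER (CreER/+), which marks perichondrial cells. The Fgfr3CE-E12.5 group (2 libraries, replicates 2 and 3) carried Fgfr3-iCreER, which marks chondrocytes. In both groups cells with a high GFP signal that were also tdTomato+ were sorted, so the comparison is of CXCL12-abundant reticular (CAR) cells with 2 histories. Cells of littermates were pooled by genotype before sorting, so that a library is a pool of animals. The series' design text names 1 sequencer, a HiSeq, for all libraries. The methods instead name a 150-base paired-end run for the Dlx5 libraries and a 50-base single-end run for the Fgfr3 libraries, and by this account read length, sequencer and lineage cannot be told apart in any value below.

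Libraries held 22035650 to 32563758 counts in the Dlx5 group and 56355203 and 58166285 counts in the Fgfr3 group. Levels are given as CPM, counts scaled to a common library total with TMM factors, gene positions are of GRCm38 (mm10), and a log2 fold change is Fgfr3 over Dlx5, so that a negative value is lower in the Fgfr3 libraries. Of the 15 pan-leukocyte markers, 14 were higher in the Fgfr3 libraries and their summed CPM was 562 to 698 in the Dlx5 libraries, 1742 in Fgfr3 replicate 2 and 3755 in Fgfr3 replicate 3. Of the 10 CAR markers, 7 were lower and 1 higher (Foxc1) in the Fgfr3 libraries, with summed CPM of 33468 to 35446 against 13648 in replicate 2 and 8900 in replicate 3. Summed erythroid markers ran from 17812 to 36343 CPM in the Dlx5 libraries and were 13900 and 20692 CPM in the Fgfr3 libraries. Chondrocyte markers summed to 120 to 131 CPM in the Dlx5 libraries and to 3001 and 415 CPM in the Fgfr3 libraries, osteoblast markers to 3736 to 5270 against 7231 and 9711 CPM, and endothelial markers to 17.2 to 33.3 against 23.4 and 30.8 CPM. The 4 measured skeletal muscle markers, of a tissue rich in respiratory chain RNA, summed to 5.46 CPM or less in each library. The part of other cells in the results below was not tested, and in bulk samples fewer cells of a type and less RNA per cell cannot be told apart.

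Sequence bears on what can be counted for these genes, because many respiratory chain genes have near-identical nuclear pseudogenes. A block of 7 annotated pseudogenes on mm10 chromosome 1, from base 24611535 to base 24616197, is a nuclear insertion of mitochondrial DNA. Over their full length the copies Gm10925 (of mt-Atp6, 678 bases), Gm28437 (of mt-Co3, 783 bases), Gm28661 (of mt-Co2, 681 bases), Gm28439 (of mt-Nd4, 876 bases) and Gm10222 (of mt-Nd4l, 294 bases) had 0 differences from the mitochondrial gene in the reference. The mt-Co1 copy on chromosome 1 (Gm29216) differed at 6 of 492 bases and the copy on chromosome 2 (Gm13340) at 37 of 1545 bases. The 90 bases of mt-Co1 with the most differences are shown with both copies, with every base of a copy that differs from mt-Co1 in capitals.
mt-Co1, chrM:6381-6470, + strand: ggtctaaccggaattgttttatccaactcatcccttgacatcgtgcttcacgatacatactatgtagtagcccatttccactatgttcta
Gm29216, chr1:24616108-24616197, - strand: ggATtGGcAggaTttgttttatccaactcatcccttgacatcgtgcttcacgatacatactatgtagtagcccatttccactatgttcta
Gm13340, chr2:22588505-22588594, - strand: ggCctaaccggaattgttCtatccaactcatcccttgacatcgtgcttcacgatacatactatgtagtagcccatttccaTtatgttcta
The first copy differed at 6 bases, all among its first bases as shown, and the other at 3 bases spread along the stretch.

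A further feature of the mitochondrial genome is that some reading frames share bases. The junctions of mt-Atp8 into mt-Atp6 and of mt-Nd4l into mt-Nd4 are shown because the genes of each pair are carried on 1 messenger RNA but were counted as separate features. Capitals mark the bases that belong to both reading frames, which number 43 in the first pair and 7 in the other.
mt-Atp8 into mt-Atp6, chrM:7907-7989, + strand: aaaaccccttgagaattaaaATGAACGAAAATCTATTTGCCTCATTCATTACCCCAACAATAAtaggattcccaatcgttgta
mt-Nd4l into mt-Nd4, chrM:10147-10193, + strand: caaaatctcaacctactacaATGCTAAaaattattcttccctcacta

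To find how far reads could be split between a gene and its copies, each member's transcripts were divided into windows of 50 bases, the shorter read length by the methods, and windows that recur in a transcript of another locus were counted. Windows shared only with a gene that overlaps the member were left out of this count. Windows recurring elsewhere made up 100% for mt-Co2, 99.9% for mt-Co3, 99.5% for mt-Atp6, 98.8% for mt-Nd4l and 98.0% for mt-Nd3. The share was 62.2% for mt-Nd4 and 51.1% for mt-Co1, 8.19% and 7.61% for mt-Nd2 and mt-Nd5, and 0% for mt-Cytb, mt-Nd1, mt-Nd6 and mt-Atp8. Among the nuclear members 78 of 95 had at most 10% of windows recurring. Atp5l (68.5%), Uqcrb (43.2%), Ndufb4 (37.0%), Atp5h (36.9%) and Atp5g2 (36.7%) had the most. With windows of 150 bases, the longer read length by the methods, the share was 44.6% for Atp5l, 29.3% for Ndufb4 and 33.1% for Atp5g2. At that length it was 12.1% for Atp5h and 0% for Uqcrb. Among mitochondrially encoded members it was 23.6% for mt-Co1, 59.2% for mt-Nd4 and 99.4% for mt-Atp6 and mt-Co2.

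Mitochondrially encoded genes took a smaller share of the counts in the Fgfr3 libraries. The 13 genes together held 0.700%, 0.641% and 0.580% of all counts in Dlx5 replicates 1, 2 and 3, and 0.415% and 0.261% in Fgfr3 replicates 2 and 3. The means were 0.640% ± 0.0599 (SD, n = 3) and 0.338% ± 0.109 (SD, n = 2), a ratio of 0.528. The groups did not overlap, and the Fgfr3 libraries lay further apart from each other than the Dlx5 libraries. With the counts of the nuclear copies added to their genes, the share was 0.908%, 0.841% and 0.766% against 0.683% and 0.427%, a ratio of 0.662.

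Across all genes, edgeR tested 10088 that reached 10 CPM in at least 2 libraries. A gene can pass this filter through 1 group alone, which favours the direction of that group. Ndufb4, Atp5g2, Cox4i2 and Ndufaf8 reached 10 CPM in the Dlx5 libraries alone. A gene was called at an adjusted p below 0.05 with an absolute log2 fold change above 1. By this rule 13.1% of all tested genes were called lower and 16.4% higher in the Fgfr3 libraries, and the tested genes had a median of 0.01 on the log2 scale. Of the 12 mitochondrially encoded genes tested, 4 were called lower (mt-Atp6, mt-Co3, mt-Co2 and mt-Cytb) and 0 higher, with a median log2 fold change of -0.80. Of the 6 tested with more than 10% recurring windows 3 were called and their median was -1.22. Of the 6 with at most 10%, mt-Cytb alone was called, 3 values were negative and 3 positive, and their median was -0.12. By adjusted p alone 6 of the 12 were lower and 1 higher (mt-Nd6), against 23.4% of all tested genes lower and 25.0% higher. The genes do not share 1 direction: 9 log2 fold changes were negative and 3 positive.

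**Figure D1:**
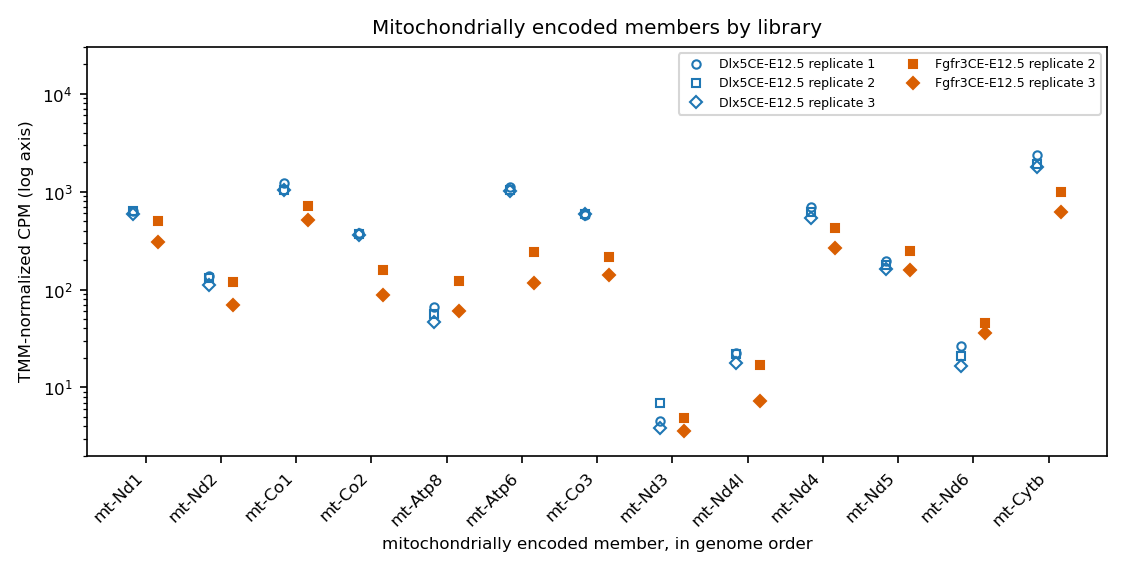
Normalized level of each mitochondrially encoded gene (CPM, log axis) in genome order, 1 point per library, open blue symbols for the 3 Dlx5CE-E12.5 and filled orange symbols for the 2 Fgfr3CE-E12.5 libraries. Both Fgfr3 points of mt-Cytb, mt-Atp6, mt-Co2 and mt-Co3 lie below all Dlx5 points, both of mt-Nd6 lie above them, and replicate 3 lies below replicate 2 at every gene.

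In complex III, mt-Cytb (chrM:14145-15288) is the cytochrome b that carries the quinone sites and shares no 50-base window with another locus. As counted, it had the highest TPM (a level per transcript length, scaled to the same sum in each library) of the members in all 5 libraries. With copies added mt-Atp6 was at 1945, 1794 and 1686 CPM in the Dlx5 libraries and 1367 and 767 CPM in the Fgfr3 libraries. Its transcript has 681 bases and that of mt-Cytb 1144, so the rank holds only for the counts without copies. The level of mt-Cytb was 2368.5, 1937 and 1785 CPM in the Dlx5 libraries and 994 and 625 CPM in the Fgfr3 libraries. The groups did not overlap, and the fitted level was 2.51-fold higher in the Dlx5 libraries (log2 fold change -1.33 ± 0.25, SE; adjusted p = 0.00520, edgeR). Adding copies could not change this gene, since it had none annotated. Without Fgfr3 replicate 3 its log2 fold change was -1.03 and its adjusted p 0.016.

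In complex IV the 3 mitochondrial subunits form the catalytic core. The level of mt-Co1 (chrM:5328-6872), which holds the oxygen-reducing site, was 1221, 1043 and 1046 CPM against 706 and 515 CPM (log2 fold change -0.85 ± 0.20, adjusted p = 0.0105). That of mt-Co2 (chrM:7013-7696), which receives electrons from cytochrome c, was 378, 373 and 356 against 159 and 87.1 CPM (-1.59 ± 0.26, adjusted p = 0.00269). That of mt-Co3 (chrM:8607-9390) was 572, 584 and 591 against 217 and 140 CPM (-1.70 ± 0.21, adjusted p = 0.000919). All 3 genes were lower in both Fgfr3 libraries than in any Dlx5 library. With copies added the log2 fold changes were -0.76 for mt-Co1, -1.17 for mt-Co2 and -0.42 for mt-Co3, the last with an adjusted p of 0.147.

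In complex V, mt-Atp6 and mt-Atp8 encode 2 membrane subunits from 1 messenger RNA, and their fold changes had opposite signs, of which that of mt-Atp6 passed the test. The level of mt-Atp6 (chrM:7927-8607) was 1119, 1047 and 1006 CPM in the Dlx5 libraries and 241 and 117 CPM in the Fgfr3 libraries (log2 fold change -2.57 ± 0.32, adjusted p = 0.000909). That of mt-Atp8 (chrM:7766-7969) was 65.6, 55.9 and 46.6 against 122 and 60.6 CPM, so that Fgfr3 replicate 3 lay among the Dlx5 libraries (0.71 ± 0.30, adjusted p = 0.0894, and 1.13 with adjusted p = 0.00816 without that library). The copy Gm10925, identical to mt-Atp6 over its length, held 25346, 15845 and 17104 counts in the Dlx5 libraries and 69327 and 41208 in the Fgfr3 libraries. Its share of the summed counts of gene and copy was 42.5%, 41.6% and 40.3% against 82.4% and 84.8%. With its counts added the log2 fold change of mt-Atp6 was -0.76 and the adjusted p 0.0480.

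In complex I, 7 mitochondrial subunits build the proton-pumping membrane arm. The level of mt-Nd1 was 637, 631 and 586 CPM against 502 and 309 CPM (log2 fold change -0.61, adjusted p = 0.0590). That of mt-Nd4 was 690, 617 and 534 against 422 and 269 CPM (-0.83, adjusted p = 0.0230). Both were lower in each Fgfr3 library than in any Dlx5 library, but only mt-Nd4 passed the test. Without Fgfr3 replicate 3 the log2 fold change of mt-Nd4 was -0.54 and its adjusted p 0.0716, and this p was 0.059 and 0.063 without Dlx5 replicate 1 and without Dlx5 replicate 2.

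The levels of mt-Nd2 (138, 130 and 110 against 120 and 68.9 CPM; log2 fold change -0.42) and mt-Nd5 (198, 180 and 163 against 250 and 157 CPM; 0.18) overlapped between the groups, with adjusted p of 0.197 and 0.529 in edgeR. The level of mt-Nd6 (chrM:13552-14070), the subunit encoded on the light strand, was 26.2, 21.1 and 16.7 CPM against 45.3 and 36.1 CPM (0.93 ± 0.23, adjusted p = 0.0133). Of the 12 tested genes it was the single one higher in both Fgfr3 libraries than in all Dlx5 libraries, and without Fgfr3 replicate 2 its adjusted p was 0.062. The kit does not mark the strand of a read, so reads of mt-Nd6 and of transcripts from the opposite strand cannot be told apart.

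Among the remaining subunits, the level of mt-Nd4l, with 297 bases, was 22.6, 21.9 and 17.7 against 17.0 and 7.32 CPM (log2 fold change -0.77, adjusted p = 0.123). Its identical copy Gm10222 held 704, 428 and 506 counts in the Dlx5 libraries and 0 in both Fgfr3 libraries, and with copies added the log2 fold change was -1.78 (adjusted p = 0.00614). Counts of mt-Nd3 were 139, 146 and 97 against 301 and 229, under 10 CPM in every library, so it was not tested.

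Every tested mitochondrially encoded gene, 12 of 12, was lower in Fgfr3 replicate 3 than in Fgfr3 replicate 2. Replicate 3 also had the higher sum of leukocyte markers and the lower sum of CAR markers, whose part in this was not tested. Without replicate 3 the median log2 fold change of the 12 genes was -0.42, and without replicate 2 it was -1.15. Each of these 2 fits leaves 1 library in the Fgfr3 group, and the share of all tested genes called in them is not given here. The 2 ribosomal RNAs of the mitochondrial genome, which are no members and were not tested, were at 195, 351 and 259 against 40.3 and 35.3 CPM (mt-Rnr1) and at 948, 1041 and 928 against 371 and 221 CPM (mt-Rnr2).

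Of the nuclear encoded members few passed the fold threshold, and 64 of 85 log2 fold changes were below 0. Together they held 0.679%, 0.639% and 0.635% of all counts in the Dlx5 libraries and 0.674% and 0.740% in the Fgfr3 libraries. The ratio of group means was 1.09 on this scale and 0.941 on TMM-normalized CPM, so the direction turned with the scaling. Of 85 tested, 10 were called lower and 0 higher, which is 11.8% lower against 13.1% of all tested genes. By adjusted p alone 34 were lower (40.0%, against 23.4% of all tested genes) and 4 higher (4.7%, against 25.0%), namely Sdhd, Atp5b, Cox5a and Atp5a1. With a trend on transcript length removed within each library 23 were lower by adjusted p (27.1%, against 28.1% of all tested genes) and 7 higher (8.2%, against 22.8%). With scaling by library size alone 19 were lower (22.4%, against 17.5%) and 10 higher (11.8%, against 33.5%). The share lower thus lay near that of all genes with the length trend removed, while the share higher lay below that of all genes in both fits. The median log2 fold change of the nuclear members was -0.33. Both Fgfr3 libraries lay below all Dlx5 libraries for 49 of the 85 and above them for 10, where 34.1% and 34.8% of all tested genes had that pattern.

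With no scaling beyond library size, the tested genes had a median of 0.22 and the nuclear members one of -0.12. A scaling factor moves all genes of a library together. This fit therefore could not change where the members lay relative to the tested genes.

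The 10 calls were divided between members with few and with many recurring windows. Of the 69 tested nuclear members with at most 10% recurring windows 5 were called lower (Uqcrh, Cox7b, Ndufa6, Ndufa13 and Cox4i2) and the median log2 fold change of the 69 was -0.22. Windows in an overlapping gene, which are not counted as recurring, made up 27.1% for Ndufa13 and 0% for Uqcrh, Cox7b, Ndufa6 and Cox4i2. Of the 16 with more than 10% recurring windows, 5 were called lower (Atp5g2, Atp5l, Ndufb4, Ndufa12 and Atp5g1) and the median was -0.65. With the counts of copies added to the genes, 8 nuclear members were called lower, where 13.0% of all tested genes were. Atp5g1, Atp5g2, Ndufa12 and Ndufb4 were then no longer called, while Cox7a2l (log2 fold change -1.07) and Uqcrb (-1.06) were.

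**Figure D2:**
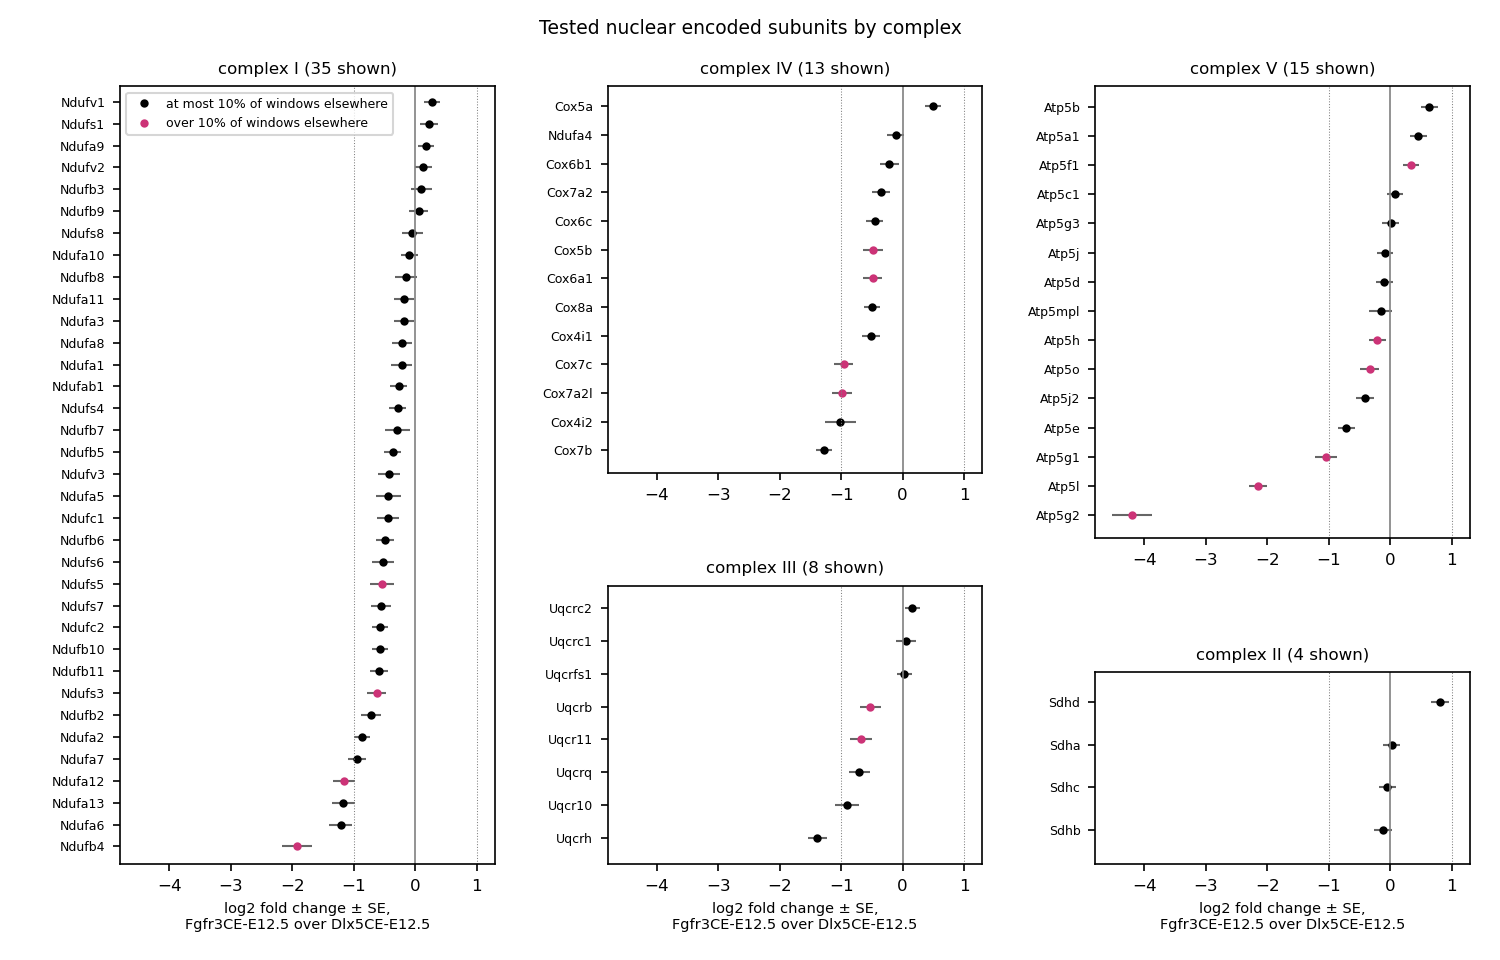
Log2 fold change (dot) and its SE (bar) of the tested nuclear encoded subunits, sorted within each complex, with 1 subunit of complex I left out. Magenta marks subunits with over 10% of 50-base windows recurring at another locus, and dotted lines mark an absolute log2 fold change of 1. Atp5g2 (-4.20), Atp5l (-2.15) and Ndufb4 (-1.92) lie furthest left and are magenta, and no subunit lies right of 1.

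Complex I has 7 nuclear core subunits, which hold the flavin and the iron-sulfur clusters, and 29 nuclear accessory subunits. The core had a median log2 fold change of -0.05 and 0 called. By adjusted p 3 of 7 core subunits were lower (42.9%, against 23.4% of all tested genes), also 3 with the length trend removed (against 28.1%). Among these, Ndufs3 had 89.5, 69.7 and 75.7 CPM against 49.7 and 51.9 CPM (log2 fold change -0.62, adjusted p = 0.0148 in edgeR). With copies added Ndufs3 stood at -0.81. Ndufs7, with no window recurring elsewhere, had 85.2, 78.6 and 87.4 against 48.9 and 65.1 CPM (-0.56, adjusted p = 0.0286). This p was 0.062 to 0.087 without Dlx5 replicate 1, 2 or 3. The largest value of the core was that of Ndufv1, the flavin subunit that accepts electrons from NADH, at 95.1, 101 and 103 CPM against 112 and 129 CPM (log2 fold change 0.28, adjusted p = 0.117). Ndufs1, the largest of the iron-sulfur subunits, was at 96.6, 77.6 and 77.7 against 102 and 94.0 CPM (0.22, adjusted p = 0.258), with overlapping groups.

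The accessory subunits had a median log2 fold change of -0.44, with 4 of 29 called lower (13.8%, against 13.1% of all tested genes). By adjusted p 12 were lower (41.4%, against 23.4%) and 0 higher (against 25.0%). With the length trend removed 11 were lower by adjusted p (37.9%, against 28.1%) and 3 higher (10.3%, against 22.8%). With library size as the only scaling 2 were called lower, as were 1009 of all 10088 tested genes, and 7 were lower by adjusted p (24.1%, against 17.5%). Ndufb4 (chr16:37647170-37654453) had 14.1, 14.4 and 14.8 CPM against 3.45 and 4.17 CPM (log2 fold change -1.92 ± 0.24, adjusted p = 0.000861). Its identical copy Ndufb4c on chromosome 15 held 629, 420 and 542 counts against 818 and 1015. The Fgfr3 libraries are deeper, so these counts do not show a higher level of the copy. They were 58.9% of the summed counts of gene and copy in the Dlx5 group and 79.4% in the Fgfr3 group. With copies added Ndufb4 stood at -0.99. Ndufa6 (chr15:82350140-82354322) had 40.7, 46.1 and 50.1 CPM against 17.4 and 22.0 CPM (-1.21 ± 0.18, adjusted p = 0.00198), with no window recurring elsewhere.

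Ndufa13 (chr8:69894180-69902558), also known as GRIM-19, had 82.9, 66.9 and 76.8 CPM against 28.8 and 38.6 CPM (log2 fold change -1.17 ± 0.19, adjusted p = 0.00239), and was not called without Fgfr3 replicate 2. Ndufa12 (chr10:94198720-94221443) had 35.1, 34.4 and 33.1 CPM against 13.6 and 17.1 CPM (-1.16 ± 0.18, adjusted p = 0.00202). These 4 genes were lower in both Fgfr3 libraries than in every Dlx5 library. For Ndufa12, however, the copy Gm15920, identical at 400 of 402 bases, held 31.0%, 29.8% and 26.6% of the summed counts in the Dlx5 libraries and 58.1% in each Fgfr3 library, and with its counts added the log2 fold change was -0.40 (adjusted p = 0.0786).

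Complex II, which also serves the TCA cycle and has no mitochondrially encoded subunit, had 0 members called. Sdha, the flavoprotein that oxidizes succinate, was at 227, 257 and 247 CPM against 261 and 236 CPM (log2 fold change 0.03). Sdhb, the iron-sulfur subunit, was at 129, 111 and 116 against 98.6 and 121 CPM (-0.11), and Sdhc, a membrane anchor, at 97.7, 87.6 and 88.1 against 80.7 and 95.6 CPM (-0.05). The groups overlapped for these 3 genes, with adjusted p of 0.560 or more. Sdhd, the other membrane anchor, was higher: 82.7, 90.4 and 85.0 CPM in the Dlx5 libraries and 133 and 170 CPM in the Fgfr3 libraries (0.81 ± 0.15, adjusted p = 0.00411).

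In complex III, 1 of 8 nuclear subunits was called lower (12.5%, against 13.1% of all tested genes). By adjusted p 5 were lower (62.5%, against 23.4%), or 2 with the length trend removed (25%, against 28.1%). Uqcrh (chr4:116066965-116075071), the hinge protein near cytochrome c1, had 84.7, 73.8 and 85.6 CPM against 29.2 and 33.0 CPM, 2.61-fold higher in the Dlx5 libraries (log2 fold change -1.39 ± 0.15, adjusted p = 0.000502). Uqcr10 had 55.7, 53.5 and 56.5 against 24.2 and 34.9 CPM (-0.90, adjusted p = 0.00751), and -0.13 with the length trend removed (adjusted p = 0.449). Both were lower in each Fgfr3 library than in any Dlx5 library. The core proteins Uqcrc1 (334, 311 and 305 against 283 and 376 CPM; 0.06) and Uqcrc2 (81.2, 78.8 and 83.3 against 85.9 and 94.9 CPM; 0.16) and the Rieske iron-sulfur protein Uqcrfs1 (81.0, 75.4 and 80.1 against 78.5 and 82.2 CPM; 0.03) did not pass the test.

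In complex IV 9 of 13 tested nuclear subunits were lower by adjusted p (69.2%, against 23.4% of all tested genes) and 2 were called, with a median log2 fold change of -0.49. With the length trend removed 2 were lower by adjusted p (15.4%, against 28.1%), and with scaling by library size alone 4 were (30.8%, against 17.5%). Cox7b (chrX:106015700-106022450) had 62.5, 64.4 and 67.3 CPM against 26.9 and 26.6 CPM (log2 fold change -1.28 ± 0.14, adjusted p = 0.000463). Only 0.630% of its windows recurred elsewhere. Cox4i2 (chr2:152754173-152765037), the isoform of subunit 4 known for expression in lung and under low oxygen, had 14.2, 12.9 and 12.8 CPM against 7.77 and 5.43 CPM (-1.01 ± 0.25, adjusted p = 0.0154). In Cox4i2 the groups did not overlap, but without Fgfr3 replicate 3 its log2 fold change was -0.78 and its adjusted p 0.072, and it was likewise not called without Dlx5 replicate 1, with the replicate number as a block, with all features in the test, with scaling by library size alone or with the length trend removed.

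The common isoform Cox4i1 had 212, 191 and 203 CPM against 129 and 154 CPM (log2 fold change -0.51, adjusted p = 0.0220). This p was 0.054 to 0.072 with Dlx5 replicate 1, 2 or 3 or Fgfr3 replicate 2 left out, and 0.094 with the length trend removed (-0.26). Per transcript length, Cox4i2 made up 6.49%, 6.53% and 6.13% of the summed TPM of both isoforms in the Dlx5 libraries and 5.87% and 3.52% in the Fgfr3 libraries. Cox4i1 was the main isoform in all 5 libraries.

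Other isoform sets showed mainly the ubiquitous form. The muscle forms Cox7a1 (8, 2 and 9 counts against 6 and 12) and Cox6a2 (34, 10 and 3 against 33 and 61) and the testis form Cox6b2 (196, 164 and 207 against 218 and 212) were too low to test. Their ubiquitous partners Cox7a2 (49.6, 43.6 and 44.5 against 33.3 and 38.8 CPM; log2 fold change -0.35, adjusted p = 0.099) and Cox6b1 (70.6, 63.9 and 68.5 against 52.1 and 64.5 CPM; -0.22, adjusted p = 0.273) did not pass the test in edgeR. Cox6a1 (142, 117 and 137 against 84.6 and 104 CPM; -0.49, adjusted p = 0.038) did, but its adjusted p was 0.062 to 0.125 with Dlx5 replicate 1, 2 or 3 or Fgfr3 replicate 2 left out. With the length trend removed its log2 fold change was 0.021 (adjusted p = 0.895).

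Cox7a2l, a factor of respiratory supercomplexes, had 81.2, 75.8 and 78.9 CPM against 34.1 and 45.2 CPM (log2 fold change -0.99 ± 0.17, adjusted p = 0.00294). It lay just short of the fold threshold, at which Cox4i2 was the member nearest above. Ndufa4, now counted as a complex IV subunit, had 86.7, 80.8 and 82.7 against 83.4 and 70.7 CPM (-0.11, adjusted p = 0.521). Its low-oxygen paralogue Ndufa4l2 had 238, 79 and 95 counts against 637 and 417 and was not tested. Cox8a had 94.3, 83.7 and 91.8 against 61.3 and 65.5 CPM (-0.50, adjusted p = 0.018). This p was 0.0501 without Dlx5 replicate 2 and 0.069 without Dlx5 replicate 3, and with the length trend removed the log2 fold change was 0.048 (adjusted p = 0.760). Cox7b2, Cox8b and Cox8c were not analysed here.

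Subunit 5 of the mammalian enzyme has 2 proteins, which are not isoforms of each other. Cox5a was higher, with 56.6, 55.0 and 51.7 CPM in the Dlx5 libraries against 71.9 and 81.2 CPM in the Fgfr3 libraries (log2 fold change 0.49 ± 0.13, adjusted p = 0.0208, and 0.063 to 0.085 without Fgfr3 replicate 3 or Dlx5 replicate 2 or 3). Cox5b was lower, with 58.0, 46.7 and 54.1 against 35.4 and 40.5 CPM (-0.48 ± 0.16, adjusted p = 0.043, and 0.064 to 0.126 without Dlx5 replicate 1, 2 or 3 or Fgfr3 replicate 2). With the length trend removed the log2 fold change of Cox5b was -0.33 (adjusted p = 0.073). The groups did not overlap for Cox5a or for Cox5b.

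Among nuclear members, complex V held the lowest log2 fold changes (Atp5g2 and Atp5l) and 2 of the 4 genes higher by adjusted p. In the F1 head, which carries out ATP synthesis, Atp5b, the catalytic beta subunit, had 654, 578 and 597 CPM against 935 and 965 CPM (log2 fold change 0.64 ± 0.14, adjusted p = 0.00991). Atp5a1, the alpha subunit, had 476, 447 and 449 against 619 and 637 CPM (0.46 ± 0.13, adjusted p = 0.0276). The groups did not overlap for either gene. The 5 subunits of the head had a median log2 fold change of 0.08. By adjusted p 2 were higher (40%, against 25.0% of all tested genes) and 1 lower (20%, against 23.4%). With the length trend removed 0 were higher (22.8% of all tested genes were) and 0 lower (28.1%). In that edgeR fit Atp5b stood at 0.37 (adjusted p = 0.061), Atp5a1 at 0.14 (0.384) and Atp5e at 0.12 (0.545). Without Dlx5 replicate 2 the adjusted p was 0.062 for Atp5b and 0.125 for Atp5a1, and for Atp5a1 it was 0.110 without Dlx5 replicate 3.

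The c-ring, through which protons turn the motor, is made of 1 mature protein encoded by Atp5g1, Atp5g2 and Atp5g3. Atp5g2 (chr15:102662864-102672352) had 35.1, 37.9 and 38.6 CPM against 2.65 and 1.40 CPM, an 18.3-fold difference in the fit (log2 fold change -4.20 ± 0.32, adjusted p = 0.000127). Its copies Gm10175, on chromosome 7 and identical over 645 bases, and Gm10231 together held 25.5%, 22.2% and 21.5% of the summed counts in the Dlx5 libraries and 91.3% and 95.4% in the Fgfr3 libraries. With the counts of both copies added the log2 fold change was -0.67 (adjusted p = 0.00646).

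Atp5g1 (chr11:96068852-96075670) had 103, 74.8 and 80.1 against 39.6 and 43.7 CPM (log2 fold change -1.04 ± 0.18, adjusted p = 0.00329), and -0.47 with copies added (adjusted p = 0.0621). Atp5g1 was not called without Dlx5 replicate 1 or without Fgfr3 replicate 2. Atp5g3, with no window that recurs, had 140, 134 and 144 against 153 and 128 CPM (0.01, adjusted p = 0.948). The values of Atp5g1 and Atp5g2, unlike that of Atp5g3, thus depended on the counts listed at their copies.

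Atp5l (chr9:44912557-44920742), a membrane subunit near the dimer interface, had 78.7, 74.0 and 85.7 CPM against 17.7 and 18.2 CPM (log2 fold change -2.15 ± 0.15, adjusted p = 8.71e-05). It had 9 annotated copies. In the Fgfr3 libraries nearly all counts at copies were at 1 of them, Gm10221 (484, 370 and 463 against 1369 and 1826), while 5 others were counted in the Dlx5 group and at 0 in both Fgfr3 libraries: Atp5l2-ps (480, 349 and 380 counts), Atp5l-ps1 (267, 212 and 263), Gm6822 (223, 177 and 189), Gm9712 (43, 21 and 35) and Gm9391 (28, 22 and 16). With all copies added the log2 fold change was -1.67 and the adjusted p 0.000199.

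A second feature named Atp5o, which overlaps the listed Atp5o and Donson genes, had 2, 0 and 0 counts in the Dlx5 libraries and 179 and 319 in the Fgfr3 libraries, at least 33.2-fold higher against a floor of 3 counts per library. Of its 50-base windows 89.8% lie in an overlapping gene and 13.5% recur at another locus. How reads of overlapping genes were assigned is not known here, so this fold is not read as a difference in expression. The Atp5o gene itself had 128, 99.7 and 111 against 83.4 and 95.8 CPM (log2 fold change -0.33, adjusted p = 0.119).

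**Figure D3:**
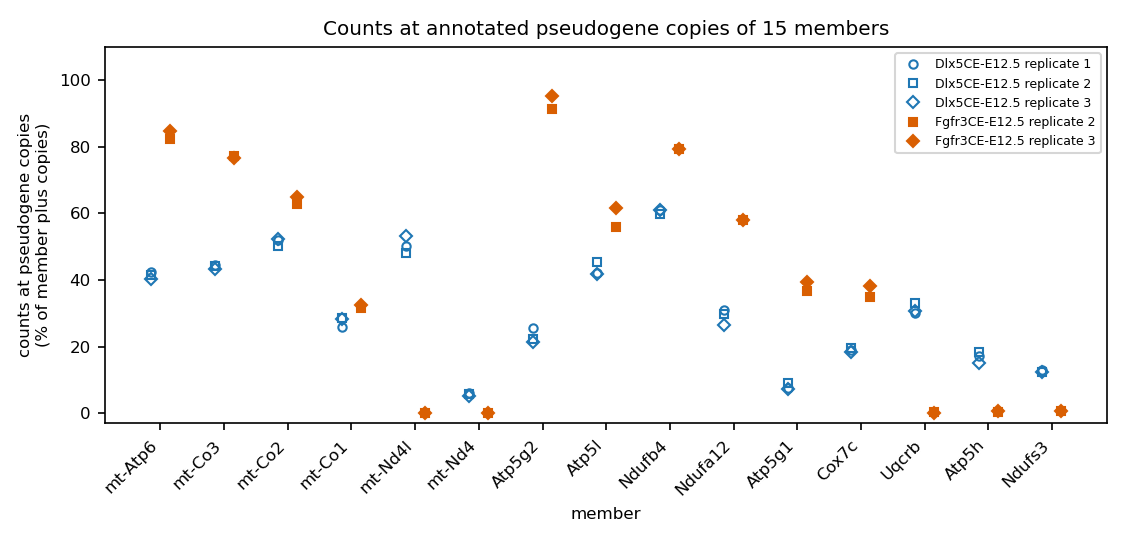
Percent of the summed counts of a member and its annotated pseudogene copies that lay at the copies, 1 point per library, for 15 members chosen after their values were seen. In the Fgfr3 libraries (orange) the share is near 0 for mt-Nd4l, Uqcrb, Atp5h and Ndufs3 and above 80% for mt-Atp6 and Atp5g2, while the Dlx5 libraries (blue) lie between these extremes.

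Counts at the copies are given here without scaling for depth. The Fgfr3 libraries held 56355203 and 58166285 counts in all, and the Dlx5 libraries 22035650 to 32563758. A larger count at a copy therefore does not by itself mean a higher level. Annotated pseudogenes that share 20 or more windows with a member numbered 60, and they belonged to 36 members. The 7 copies of the chromosome 1 block held 58324, 37862 and 43622 counts in the Dlx5 libraries and 151126 and 96535 in the Fgfr3 libraries, and the 3 copies on chromosome 2 held 9085, 6036 and 6495 against 18 and 21. Copies identical to their gene thus held counts in both groups in some cases (Gm10925) and none in the Fgfr3 libraries in others (Gm10222). Lineage and read length cannot be told apart as the source of these differences.

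**Figure D4:**
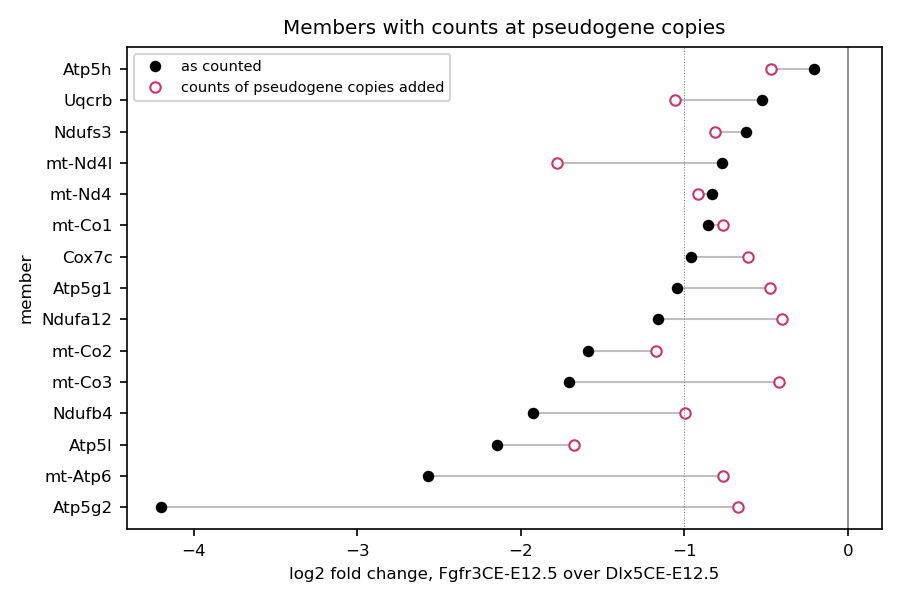
Log2 fold change of the same 15 members as counted (black) and with the counts of their pseudogene copies added (magenta circles). Atp5g2 moves from -4.20 to -0.67, mt-Atp6 from -2.57 to -0.76 and mt-Co3 from -1.70 to -0.42, mt-Nd4l moves the other way, from -0.77 to -1.78, and every value stays below 0.

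Transcript length moved with the fold changes of the nuclear members. Their principal transcripts had a median of 870.5 bases, against 2961 bases for all tested genes. The 30 tested members of up to 700 bases had a median log2 fold change of -0.50, with 29 of 30 negative, and the 213 tested genes of that length, members included, had a median of -0.43. The 28 members above 1200 bases had a median of 0.04 and the 9128 genes of that length 0.03. With the length trend removed, 9 nuclear members were called lower, where 12.9% of all tested genes were, the median of the nuclear members was -0.16 and that of all tested genes -0.10. In that fit the 13 complex IV subunits had a median of 0.00, and Cox4i2, Ndufa6 and Uqcrh were not called. Atp5l (-1.58) and Cox7b (-1.23) were still called, and mt-Atp8 was at 2.33 (adjusted p = 0.00199). With a trend on GC content removed instead, 15 nuclear members were called lower, where 14.9% of all tested genes were, Ndufa7, Ndufaf8, Ndufs7, Uqcr10 and Uqcr11 being gained.

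**Figure D5:**
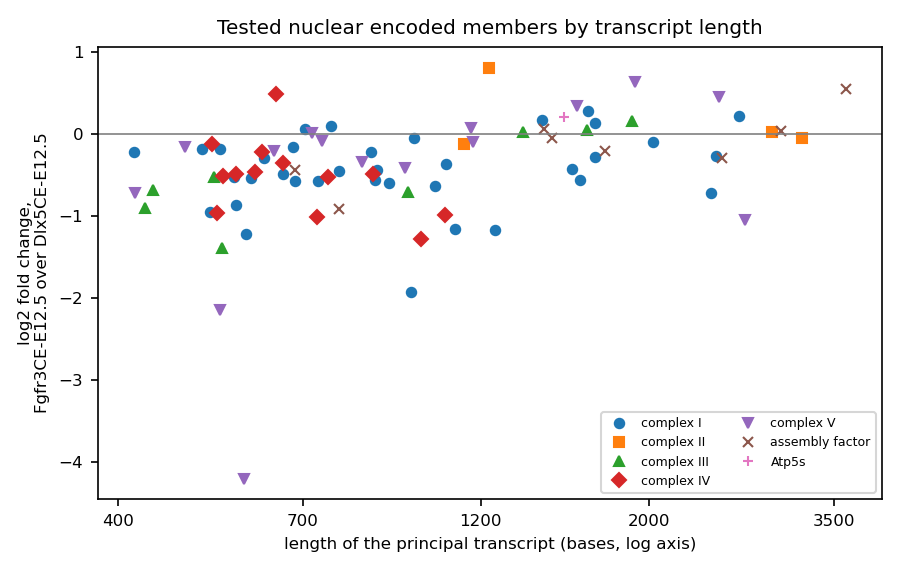
Log2 fold change of each tested nuclear encoded member against the length of its principal transcript (bases, log axis), 1 point per member with the shape by complex. Members of up to 700 bases lie almost all below 0 (29 of 30), and those above 1200 bases lie on both sides, around a median of 0.04.

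Assembly factors, which build the complexes without staying in them, showed 0 calls among 8 tested. Ndufaf8 was lower by adjusted p (14.5, 11.5 and 12.6 against 6.06 and 7.68 CPM; log2 fold change -0.91, adjusted p = 0.020) and is named because it is the single such case. Its adjusted p was 0.084 without Fgfr3 replicate 2 (-0.75) and 0.055 without Dlx5 replicate 3, and with the GC trend removed it was called (-1.12). Ndufaf2 (230, 180 and 232 counts against 486 and 482), Ndufaf5 (227, 142 and 207 against 322 and 368), Ndufaf6 (160, 94 and 98 against 362 and 437) and Sdhaf3 (266, 185 and 222 against 352 and 230) failed the filter, as did the subunit Atp5k (231, 144 and 169 against 407 and 488). Of the 27 tested assembly factors outside the naming rule, 2 were called higher (16.4% of all tested genes were) and 0 lower (13.1%). Cox15, which makes heme A for complex IV, had 6.30, 6.78 and 7.40 against 32.2 and 41.5 CPM (2.43 ± 0.20, adjusted p = 0.000170). Ttc19, a complex III factor, had 7.63, 8.01 and 8.39 against 29.7 and 23.5 CPM (1.73 ± 0.20, adjusted p = 0.000649). Both genes reached 10 CPM in the Fgfr3 libraries alone, so they passed the filter only through the group where they are high.

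Genes around the chain were counted from lists written with earlier results of these data known, and each count of calls stands against 13.1% of all tested genes called lower and 16.4% called higher. Of 12 tested mobile carriers and coenzyme Q genes 1 was lower and 1 higher. Cycs, cytochrome c, had 97.9, 77.4 and 76.3 CPM against 26.0 and 29.1 CPM (log2 fold change -1.61 ± 0.17, adjusted p = 0.000497), and its many processed pseudogenes were not examined. Coq2, of coenzyme Q synthesis, had 7.96, 10.8 and 16.3 against 41.4 and 46.0 CPM (1.91 ± 0.29, adjusted p = 0.00206).

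Among 9 tested genes of mitochondrial genome upkeep and transcription 1 was called, Polg, the mitochondrial DNA polymerase, with 30.9, 32.0 and 39.9 against 80.1 and 95.6 CPM (log2 fold change 1.36 ± 0.17, adjusted p = 0.000871). Tfam, which packages mitochondrial DNA and starts its transcription, had 27.9, 32.9 and 34.8 against 31.2 and 29.2 CPM (-0.08, adjusted p = 0.727). Polrmt, the mitochondrial RNA polymerase, had 18.8, 30.3 and 20.8 against 26.7 and 38.2 CPM (0.48, adjusted p = 0.174). Neither Tfam nor Polrmt passed the test, and their groups overlapped.

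Among 11 tested genes of mitochondrial RNA processing 1 was called, Grsf1, a factor of the RNA granules, with 12.0, 11.5 and 12.6 against 68.2 and 63.8 CPM (log2 fold change 2.45 ± 0.15, adjusted p = 5.32e-05). Of 6 tested regulators of biogenesis only Esrra, a nuclear receptor that drives respiratory genes, was called (5.32, 4.99 and 6.28 against 12.4 and 16.2 CPM; 1.37 ± 0.25, adjusted p = 0.00407). Esrra reached 10 CPM in the Fgfr3 libraries alone and so passed the filter only through that group. Nrf1 had 66.4, 66.7 and 66.7 against 67.5 and 66.3 CPM (0.01, adjusted p = 0.968). The coactivators Ppargc1a (17, 20 and 28 counts against 48 and 55) and Ppargc1b (57, 82 and 83 against 127 and 113) were too low to test.

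Of the 13 TCA cycle genes 0 were called in either direction, with 2 lower and 2 higher by adjusted p. Of 8 tested genes of adenine nucleotide exchange and uncoupling 1 was lower and 1 higher. Slc25a4, an ADP/ATP carrier, had 612, 608 and 643 CPM against 295 and 294 CPM (log2 fold change -1.08 ± 0.14, adjusted p = 0.00101). Ucp2, a relative of the uncoupling protein that is abundant in leukocytes, had 245, 142 and 175 against 390 and 520 CPM (1.28 ± 0.25, adjusted p = 0.00560), and moved with the leukocyte markers given above, a relation that was not tested.

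Promoters of the nuclear members were searched for 3 motifs of factors known for respiratory genes, on both strands, in the RefSeq windows of 250 bases before to 50 bases after each start (GRCm38.p6), which matched 76 of the members by symbol. The NRF1 motif GCGCATGCG was in 10 of 76 members (13.2%) and in 1.95% of all genes with a promoter. The YY1 motif AAGATGGCG was in 8 (10.5%, against 1.64%) and the ETS motif CCGGAAGT in 5 (6.58%, against 4.31%). None of these motifs contains another. Of the 9 called nuclear members with a promoter in the table, Atp5g2 and Atp5l held the NRF1 motif, Uqcrh the ETS motif and 0 the YY1 motif. Shown are the promoter of Atp5g2, the member with the largest fold change, and of Uqcrh, the called member with few recurring windows that held a motif, with the motif in capitals.
Atp5g2, chr15:102670998-102671297, - strand: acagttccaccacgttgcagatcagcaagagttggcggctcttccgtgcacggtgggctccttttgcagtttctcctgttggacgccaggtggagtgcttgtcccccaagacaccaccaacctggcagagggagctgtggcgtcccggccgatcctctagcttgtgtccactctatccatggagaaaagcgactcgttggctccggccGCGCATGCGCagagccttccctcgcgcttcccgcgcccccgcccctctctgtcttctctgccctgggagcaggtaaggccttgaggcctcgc
Uqcrh, chr4:116075021-116075320, - strand: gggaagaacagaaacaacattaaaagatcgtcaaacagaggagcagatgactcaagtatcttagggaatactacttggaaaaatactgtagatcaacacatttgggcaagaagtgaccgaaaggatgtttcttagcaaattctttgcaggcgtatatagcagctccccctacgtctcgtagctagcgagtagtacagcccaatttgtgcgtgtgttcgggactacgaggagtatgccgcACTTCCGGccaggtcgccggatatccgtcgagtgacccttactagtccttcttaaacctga
In Atp5g2 the motif and its reverse complement share bases, so the capitals run over 10 letters. A match of letters is a description and says nothing of binding in these cells.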

How the data were processed

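Gene counts of 5 bulk RNA-seq libraries (SMART-Seq v4, without strand marks or molecular identifiers) were used as deposited. The authors aligned reads to mm10 with TopHat2 2.0.13 and Bowtie2 2.2.1 and counted them with HTSeq, per the labels and the methods; the counting settings, including how reads with several positions were treated, are not given in the sources used here. The deposited depth-normalized and rlog tables were not used.

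Symbols, coordinates and transcripts came from GENCODE M21 (GRCm38). Protein-coding and reporter features with at least 10 CPM in at least 2 libraries were tested with the quasi-likelihood test of edgeR 4.0.16 in R 4.3.3 (TMM scaling, library totals over all features), Benjamini-Hochberg adjusted over 10088 genes. The script was tested on simulated data. TPM used the median length of the APPRIS principal transcripts. Recurring windows were searched in annotated transcripts, not in the genome. Counts of 60 pseudogene copies were added to their members as an alternative chosen after seeing the data.

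DESeq2 1.42.0, other scalings and filters, length and GC trends and the omission of each library were alternatives. The members and lists were chosen with earlier results of these data known. Named were all mitochondrially encoded members, called members, isoform sets and members failing the filter. Some, not all, of the 3 highest and 3 lowest log2 fold changes per complex and some core subunits of complex I were also named. Samples are pools of littermates; the study gives 4 mice as the source of the pools of each group and describes the libraries as independent biological replicates. Replicates differed beyond sampling noise. A count of 0 allows up to 3 counts, 0.0516 to 0.136 CPM before scaling, covering counting error only. The values of 1 complex I subunit are not reported here, though it is included in the counts and medians.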

Additional observations from a re-analysis of the deposited data

How the results depend on the processing

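The number of nuclear members called lower (10) was 6 with library size alone, 34 with no fold threshold, 15 with the GC trend removed, 5 among members with at most 10% recurring windows, and 8 to 13 with 1 library left out. The number called higher (0 in edgeR, 4 by adjusted p alone) was 1 with library size alone, with a filter of 1 CPM and with no filter, and 0 with each library left out. Mitochondrially encoded members called lower (4) numbered 1 among those with at most 10% recurring windows and 4 to 8 with 1 library left out, the 8 without Fgfr3 replicate 2. Those called higher (0) numbered 1 with the GC trend removed, with library size alone and with no fold threshold, 2 with the length trend removed, and 0 to 2 with 1 library left out, the 1 without Dlx5 replicate 1 and the 2 without Fgfr3 replicate 3. The median log2 fold change of nuclear members (-0.33) was -0.16 with the length trend removed, -0.12 with library size alone, -0.42 with the GC trend removed, -0.22 with at most 10% recurring windows, and -0.44 to -0.24 with 1 library left out. That of the mitochondrially encoded members (-0.80) was -0.12 with at most 10% recurring windows and -1.15 to -0.42 with 1 library left out. The log2 ratio of the nuclear share of counts (0.12) was -0.088 on TMM-normalized CPM and 0.05 to 0.19 with 1 library left out, and that of the mitochondrial share (-0.92) was -0.59 with copies added and -1.30 to -0.63 with 1 library left out. Shares of all tested genes called are not given for fits with 1 library left out, so these counts are not read against a background. A fit without an Fgfr3 library leaves 1 library in that group. The cause was not tested.

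Labels share only the numbers 2 and 3 between the groups, and deviations of same-numbered libraries correlated at 0.12 and -0.05. With the replicate number as a block, 8 nuclear members and 4 mitochondrially encoded members were called lower and 1 of the latter higher, and the medians were -0.29 and -0.78. Sdha (-0.025) and Sdhc (0.00042) turned sign.

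Of 952 values of named genes under alternatives, 852 kept direction and side of the threshold, 48 lost and 15 gained significance and 37 turned sign. Turned values with the length trend removed were mt-Nd4l 0.48, mt-Nd5 -0.070, Sdha -0.29, Cox7a2 0.027, Cox6a1 0.021, Cox6b1 0.21, Cox8a 0.048, Ndufa4 0.49, Ndufs1 -0.095, Uqcrfs1 -0.16, Uqcrc1 -0.19, Uqcrc2 -0.11 and Nrf1 -0.25. With the GC trend removed they were Uqcrc1 -0.28, Polrmt -0.10 and Nrf1 -0.011, with library size alone Sdhb 0.096, Sdhc 0.16, Ndufa4 0.095 and Tfam 0.13, and with a filter of 1 CPM Atp5g3 -0.0092 and Nrf1 -0.015. With 1 library left out the ranges that crossed 0 were -0.20 to 0.47 for mt-Nd5, -0.048 to 0.096 for Sdha, -0.27 to 0.025 for Sdhb, -0.18 to 0.070 for Sdhc, -0.24 to 0.00010 for Ndufa4, -0.12 to 0.14 for Atp5g3, -0.0062 to 0.061 for Uqcrfs1, -0.16 to 0.25 for Uqcrc1 and -0.0057 to 0.020 for Nrf1.

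Calls of lower members were the same 14 genes with DESeq2, its size factors and edgeR's exact test. The call of Cox4i2 was lost without Dlx5 replicate 1 and without Fgfr3 replicate 3, that of Atp5g1 without Dlx5 replicate 1 and without Fgfr3 replicate 2, and that of Ndufa13 without Fgfr3 replicate 2. Genes under the count filter (11 of 108 members) could not be tested at this depth.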

Other observations

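Across the 85 tested nuclear members the log2 fold change rose with transcript length (Spearman's rho 0.44), where over 10083 tested genes rho was -0.12. With GC content rho was -0.30 over the members and 0.12 over the tested genes. These are correlations across genes that share the same 5 libraries, so they are descriptions and genes are not independent replicates. The nuclear core subunits of complex I have a median transcript of 1623 bases and the accessory subunits 763 bases, and the F1 head of complex V 1170.5 against 680 bases for the other nuclear features of that complex, so role and length move together among the members.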
